A study of Mus musculus with 8 samples.

Results

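The transcripts described here are those of 57 mouse transcription factor genes outside the homeobox class, namely members of the T-box, Zic, Ebf, Fox, Sox, bHLH, and bHLH-PAS families together with Sp, Prdm, Skor, Tcf/Lef, and other zinc finger genes. They were listed by name, with earlier results of these data known, and every probe whose RefSeq transcript belongs to 1 of these genes was taken, which gave 84 of the 55681 probes on the array and 57 of the 20284 genes that could be named. RNA was collected from the arcuate nucleus (Arc), ventromedial hypothalamus (VMH), dorsomedial hypothalamus (DMH), and lateral hypothalamus (LH) of adult mice to ask which genes are selective for the DMH. Tissue of each nucleus was cut out by laser microdissection from 2 C57BL/6 females (C57BL/6J in the methods) aged 3 months, for which the labels list neither a transgene nor a treatment, and the amplified RNA was hybridized to 8 one-color arrays, 2 for each nucleus. The labels do not say which mouse each array came from, and p-values measure only the spread between the 2 arrays of a nucleus. A sample of this kind is a piece of tissue with all its cell types, so that fewer cells of a type and less RNA per cell cannot be told apart in any of the values below.

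Transcription factors bind short DNA sequences and switch the genes beside them on or off, and neurons of neighboring nuclei keep distinct sets of them after development. Members of a family share a DNA-binding domain, such as the T-box of Tbx3, the zinc fingers of Zic1, the forkhead domain of the Fox proteins, the HMG box of the Sox proteins, and the basic helix-loop-helix of Nhlh2. Several of the genes are known for roles in hypothalamic neurons, including Tbx3 and Foxo1 in the neurons of the Arc that control feeding, and Nhlh2 in body weight and fertility.

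Each value is the Agilent processed signal of a probe, a background-subtracted intensity, divided by the 75th percentile of its array, and is called the scaled signal. Between 47.1% and 52.7% of the spots of an array were well above background by the criterion of the scanner software, and the number of arrays limits the precision. A probe is called measured on an array where it passed that criterion, and the lowest scaled signal of any measured probe lay between 79.3 and 132 on the 8 arrays, so that lower values have no order. Where a nucleus has no measured array, a fold is given as "at least", against the lowest measured signal of each array (the measured floor). The p beside it is that of the fit to the scaled signals, which were not raised to this floor. The tissue labels were checked with marker genes. The summed signal of 6 Arc markers was 180890 to 186560 on the Arc arrays and 8475 to 29383 elsewhere, that of 4 VMH markers 78026 to 93692 on the VMH arrays and 4851 to 23986 elsewhere, and that of 4 DMH markers 10521 to 13346 on the DMH arrays and 395 to 1574 elsewhere. Hcrt and Pmch, the peptide genes of LH neurons, together reached 123620 and 133750 on the LH arrays, but also 62914 and 72193 on the DMH arrays, and 286 to 4623 in the Arc and VMH. The 2 LH arrays correlated less well with each other (Pearson r = 0.938 across tested probes) than the 2 arrays of any other nucleus (0.971 to 0.981), and the second LH array correlated better with both DMH arrays (0.941 and 0.954) than with the first LH array.

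The promoters of 5 of the genes are shown first, because 3 of them (Prdm13, Skor1, and Sp5) were highest in the DMH and the other 2 (Zic1 and Foxa1) in the LH. The sequences are the 250 bases before the most upstream start of each gene in the RefSeq annotation of GRCm38.p6, 5′ to 3′ on the strand of the gene, and 41 of the 57 genes had such a window. Prdm13 lies on the minus strand at chr4:21685964-21686213, Skor1 on the minus strand at chr9:63148962-63149211, Sp5 on the plus strand at chr2:70474673-70474922, Zic1 on the minus strand at chr9:91365769-91366018, and Foxa1 on the minus strand at chr12:57546112-57546361. Capitals mark matches, on either strand, to AAGTG (the core letters bound by NK2 homeodomain factors such as Nkx2-1), CTTTGA (the core letters bound by Tcf/Lef factors), and GTAAACA (letters bound by Fox factors).
Prdm13: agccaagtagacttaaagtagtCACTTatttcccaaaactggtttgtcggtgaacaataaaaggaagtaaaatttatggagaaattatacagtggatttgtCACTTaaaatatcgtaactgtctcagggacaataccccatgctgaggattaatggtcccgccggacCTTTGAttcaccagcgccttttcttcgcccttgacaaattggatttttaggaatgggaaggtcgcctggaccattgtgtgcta
Skor1: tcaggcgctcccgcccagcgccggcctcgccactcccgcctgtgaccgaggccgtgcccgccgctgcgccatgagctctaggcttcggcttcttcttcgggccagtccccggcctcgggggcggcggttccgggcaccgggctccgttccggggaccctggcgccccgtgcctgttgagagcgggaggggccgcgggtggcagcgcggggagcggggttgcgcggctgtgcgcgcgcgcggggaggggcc
Sp5: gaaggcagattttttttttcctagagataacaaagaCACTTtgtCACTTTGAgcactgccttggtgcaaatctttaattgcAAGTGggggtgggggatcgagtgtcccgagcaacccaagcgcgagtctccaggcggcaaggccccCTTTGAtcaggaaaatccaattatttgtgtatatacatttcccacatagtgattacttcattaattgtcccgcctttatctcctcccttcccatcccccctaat
Zic1: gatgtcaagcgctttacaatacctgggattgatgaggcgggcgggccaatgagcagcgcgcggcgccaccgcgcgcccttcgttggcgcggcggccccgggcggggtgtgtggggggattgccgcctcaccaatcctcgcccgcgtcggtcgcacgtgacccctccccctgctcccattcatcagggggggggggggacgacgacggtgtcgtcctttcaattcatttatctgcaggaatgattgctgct
Foxa1: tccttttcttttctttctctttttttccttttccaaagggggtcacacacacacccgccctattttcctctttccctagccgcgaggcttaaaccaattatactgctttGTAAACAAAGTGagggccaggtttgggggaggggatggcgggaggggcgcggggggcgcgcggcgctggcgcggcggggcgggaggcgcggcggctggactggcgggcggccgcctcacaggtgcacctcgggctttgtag

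The Prdm13 window held 2 matches to AAGTG and 1 to CTTTGA, the Sp5 window 3 and 2, with 1 overlap between the 2 motifs, and the Skor1 window held neither. The Foxa1 window held 1 match to GTAAACA directly followed by 1 to AAGTG, and the Zic1 window held none of the 3 motifs. Of all 32851 windows of this length, 40.7% held AAGTG, 13.8% held CTTTGA, and 3.17% held GTAAACA on at least 1 strand. The motifs were chosen after the sequences were seen, and a match describes letters only.

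For 40 of the 57 genes, some nucleus had a probe measured on both its arrays, and the 56 such probes entered the test. In a limma model of the 4 nuclei over all 28894 probes that passed this filter, 24 of the 56 probes (42.9%), from 21 genes, differed among the nuclei at an adjusted p below 0.05, where 8.34% of all tested probes did. Because a probe measured in only 1 nucleus had to differ to some extent, the 34 member probes measured on all 8 arrays were also counted, and 8 of them (23.5%) differed. When only probes measured on all arrays were fitted, 9 of the 34 differed, beside 10.6% of all 22620 such probes. The genes were listed with earlier results of these data known, Prdm13 and Skor1 among them, so that these shares are a description. The signal of the highest nucleus over that of the lowest had a median of 2.66 over the 56 probes and 1.56 over all tested probes. Of the 24 probes, 9 were highest in the LH, 6 in the Arc, 6 in the DMH, and 3 in the VMH, beside 968, 557, 182, and 702 of all 2409 probes that differed. By family, the probes that differed belonged to 3 of the 5 T-box genes, 1 of 4 Zic, 2 of 4 Ebf, 4 of 10 Fox, 3 of 9 Sox, 1 of 9 bHLH, 2 of 5 bHLH-PAS, 1 of 3 Sp, 1 of 3 Prdm, 1 of 2 Skor, both other zinc finger genes, and not to Tcf7l2.

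**Figure D1:**
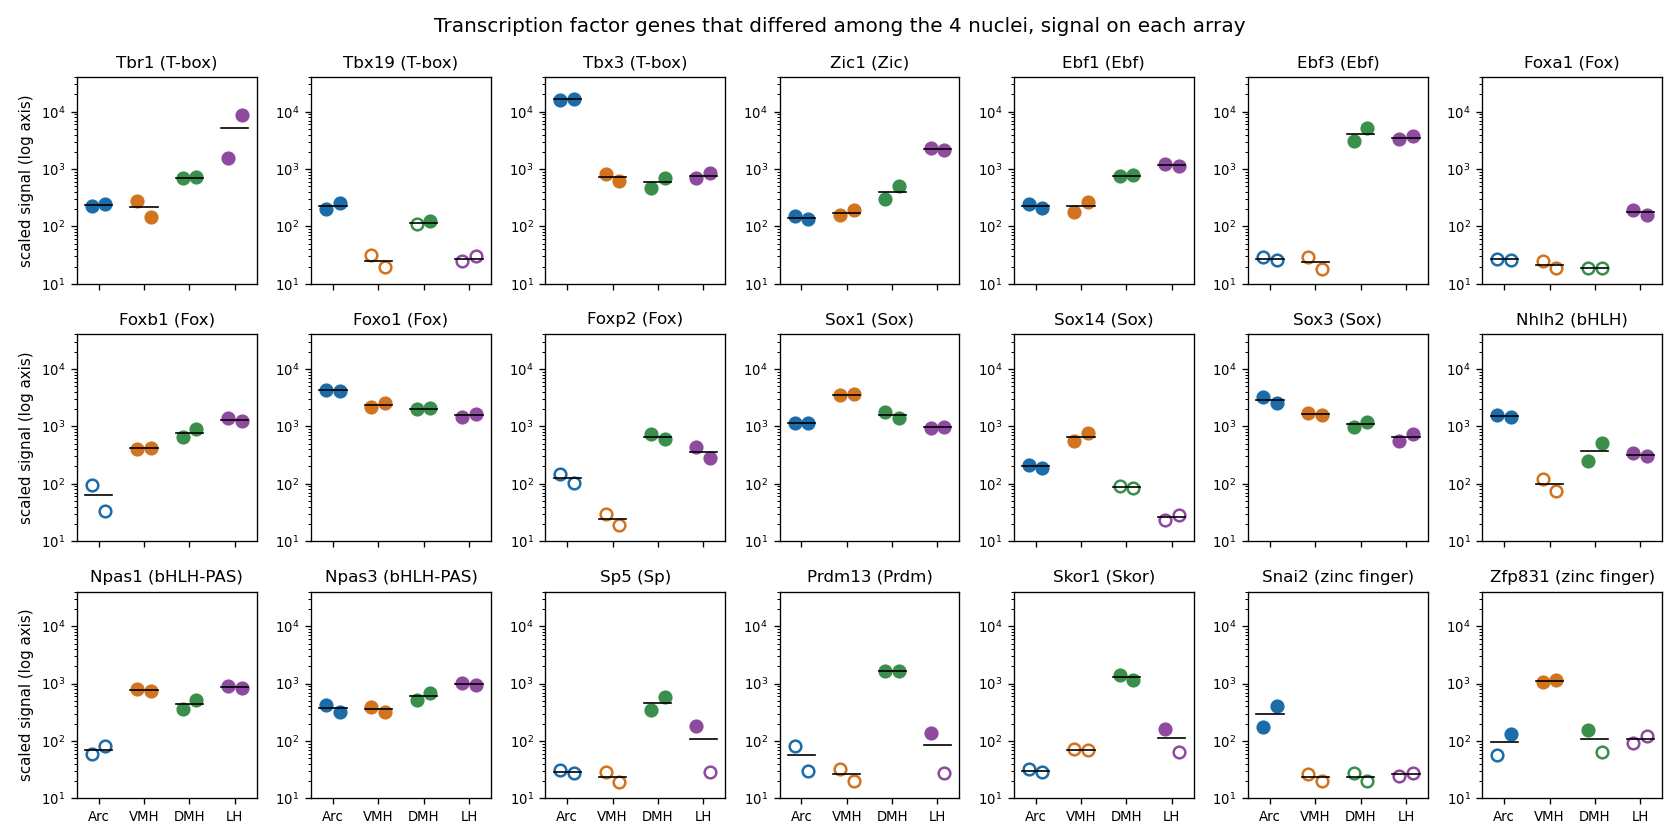
Scaled signal on a log axis of the 21 genes that differed among the nuclei, with 1 point for each array, filled where the probe was measured and open where it was not, and a black line at the mean of the 2 arrays. Where a gene had several probes, the brightest of those that differed is drawn. Tbx3 stands at 16146 and 16919 in the Arc and at 841 or less elsewhere, Prdm13 and Skor1 are at 1172 or more in the DMH and at 162 or less elsewhere, and the 2 LH arrays of Tbr1 lie apart.

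Skor1 and Prdm13 were highest in the DMH. Skor1 encodes a corepressor of the Ski family, and Prdm13 a zinc finger protein with a PR domain that acts with bHLH factors in the spinal cord and retina. The scaled signal of Prdm13 was 1661 and 1667 on the DMH arrays, 82.3 and 29.8 on the Arc arrays, 32.6 and 20.1 on the VMH arrays, and 140 and 27.8 on the LH arrays. Both DMH arrays were thus far above all others, and of the remaining 6 only the first LH array measured the gene. The DMH level was at least 14.7-fold that of the Arc (adjusted p = 0.034) and at least 16-fold that of the VMH (adjusted p = 0.0136), whereas the difference from the LH, 4.74 ± 0.78 (SE) on the log2 scale, did not pass (adjusted p = 0.0521). That difference includes an unmeasured LH array. It was 5.90 (0.0103) without the first LH array and 3.57 (0.0253) without the second, and 3.61 (0.00318) with dim signals set at the measured floor. It passed under 7 of 19 alternatives, these 3 among them, with adjusted p up to 0.67 over the 19.

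Skor1 had 2 probes. The brighter read 1415 and 1172 in the DMH, 32.2 and 28.8 in the Arc, 71.3 and 69.3 in the VMH, and 162 and 64.7 in the LH, and the dimmer read 1200 and 1121, 29.9 and 26.3, 30.4 and 18.9, and 184 and 29.4 in the same order. On both probes the first LH array was the only one outside the DMH on which Skor1 was measured, as for Prdm13. The brighter probe was higher in the DMH than in each other nucleus, at least 11.4-fold over the Arc (adjusted p = 0.00208), at least 12.4-fold over the VMH (0.00505), and by 3.65 ± 0.40 over the LH on the log2 scale (0.0197). It was the only member probe with this result, which was found for 0.0208% of all tested probes. The dimmer probe missed it against the LH (adjusted p = 0.0699), although it passed there under 5 of 19 alternatives, among them without LH replicate 1 (0.00419) or LH replicate 2 (0.00791). The brighter probe missed it against the LH without Arc replicate 2 (0.051), without either VMH array (0.063 and 0.058), and without either DMH array (0.101 and 0.057). Leaving out LH replicate 1 or LH replicate 2 instead raised the count of such member probes to 4 and 3. The F-test of the dimmer probe (0.0143) missed the threshold without any 1 of the Arc, VMH, and DMH arrays (0.054 to 0.084).

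Sp5, which encodes a zinc finger repressor known as a target of Wnt signaling, was dimmer. It read 342 and 591 in the DMH, 183 and 29.1 in the LH, and between 19.4 and 30.7 on the 4 Arc and VMH arrays. Again the first LH array alone measured it outside the DMH. Sp5 differed among the nuclei (adjusted p = 0.0436), with at least 4.32-fold more signal in the DMH than in the VMH (0.0465), but the difference from the Arc (0.0766) and from the LH (0.198) did not pass. Of 19 alternatives, the DMH passed against the LH only without LH replicate 1 (3.95 on the log2 scale instead of 2.62, 0.0103). Its F-test lost the threshold without any 1 of the 6 Arc, VMH, and DMH arrays (adjusted p between 0.128 and 0.195), and that of Prdm13 without either VMH array (0.055 and 0.056) or either DMH array (0.084 and 0.086). The LH array on which all 3 genes were measured also read 376 for Grp and 406 for Npvf, 2 of the 4 DMH markers, against 33 and 29 on the second LH array. The other 2 DMH markers read 235 and 207 (Gpr50) and 184 and 126 (Ppp1r17) on the 2 LH arrays, and the part of DMH tissue in the LH values was not tested.

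Of the Ebf and Fox families, Ebf3, Ebf1, and Foxp2 were higher in both the DMH and the LH than in the Arc and VMH, and Foxb1 was lowest in the Arc. Ebf1 and Ebf3 encode HLH factors that drive the differentiation of neurons and other cells, Foxp2 a forkhead repressor of neurons, and Foxb1 a forkhead factor known from the mammillary region. Ebf3 read 3043 and 5175 in the DMH and 3287 and 3818 in the LH, and between 18.3 and 29.1 on the 4 arrays of the Arc and VMH, where it was not measured. The DMH was at least 35.1-fold above the Arc (adjusted p = 0.000334) and at least 38.2-fold above the VMH (0.000462), and the LH at least 31.3-fold (0.000351) and at least 34.1-fold (0.000386). The arrays of the DMH and LH overlapped, and the difference between them, 0.16 ± 0.33 on the log2 scale, did not pass (adjusted p = 0.833). The summed signal of Hcrt and Pmch, the peptide genes of LH neurons, was 72193 and 62914 on the DMH arrays and 123620 and 133750 on the LH arrays. The part of tissue shared by the DMH and LH samples in the values of Ebf3, Ebf1, and Foxp2 was not tested.

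Ebf1 showed a smaller step, with 746 and 796 in the DMH, 1248 and 1131 in the LH, 246 and 213 in the Arc, and 181 and 265 in the VMH. It was measured everywhere, and all 4 DMH and LH arrays were above all 4 Arc and VMH arrays. The LH exceeded the Arc by 2.38 ± 0.24 (adjusted p = 0.00291) and the VMH by 2.44 ± 0.24 (0.00399) on the log2 scale, and the DMH exceeded both as well (0.0218 and 0.0153). The LH and DMH differed by 0.62 ± 0.24, which did not pass (adjusted p = 0.29). Ebf2 was measured on no array.

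Foxp2 read 727 and 593 in the DMH, 431 and 286 in the LH, 145 and 104 in the Arc, and 29.9 and 19 in the VMH. Neither the Arc nor the VMH measured it, and the DMH was at least 4.83-fold above the Arc (adjusted p = 0.0212) and at least 6.32-fold above the VMH (0.00159). A second Foxp2 probe was measured on no array. Foxp2 was also the 1 member called lower in the VMH than in each other nucleus, beside 0.485% of all tested probes, but neither the VMH nor the Arc measured it, and the call was lost without either Arc array or VMH replicate 2, which left 0. No member was lower in the DMH than in each other nucleus by limma (0.0173% of all tested probes were), and the count was also 0 at an unadjusted p below 0.05 and 0 by Tukey-Kramer. Foxp2, Ebf3, and Ebf1 were the 3 member probes with both the DMH and the LH above both the Arc and the VMH, a result found for 0.132% of all tested probes. The count fell to 1 when either Arc array, the first VMH array, or either DMH array was left out, and rose to 6 without the second LH array.

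Foxb1 was graded across the nuclei, with 94.8 and 34.1 in the Arc, 408 and 425 in the VMH, 648 and 910 in the DMH, and 1396 and 1223 in the LH. The 2 arrays of a nucleus did not overlap with those of any other. It was not measured in the Arc, which lay below the VMH (at least 3.68-fold, adjusted p = 0.0153), the DMH (at least 6.79-fold, 0.0143), and the LH (at least 11.6-fold, 0.00279), whereas the LH did not pass against the VMH (0.0948) or the DMH (0.446), nor did the DMH against the VMH (0.521). With 1 probe of Npas1 it made up the 2 members for which the Arc lay below each other nucleus, as it did for 0.457% of all tested probes, and 1 probe remained counted without Arc replicate 1 or without any 1 of the VMH and DMH arrays. Foxb1 is itself in a list of 8 marker genes of the mammillary and paraventricular nuclei. The sum of that list was 14851 and 22968 in the LH, 11070 and 15713 in the DMH, and 4365 to 10069 on the other arrays, its member Sim1 was measured on no array, and 5 of the 8 passed the F-test, Foxb1 itself included. Of the other 4, Lhx1 (608 and 657 in the LH, 30.4 to 432 elsewhere) and Crh (4931 and 3623 in the LH, 26.8 to 2543 elsewhere) were highest in the LH, Trh read 5586 to 9818 in the DMH and LH and 43.8 to 119 elsewhere, and Nkx2-1 was highest in the VMH. The part of such tissue in the Foxb1 values was not tested.

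Zic1 and Foxa1 were highest in the LH. Zic1 encodes a zinc finger factor of the dorsal neural tube and cerebellum that is also found in the septum and thalamus, and Foxa1 a pioneer factor known in the brain for midbrain dopamine neurons and the subthalamic nucleus. The brighter Zic1 probe read 2361 and 2133 in the LH, 306 and 498 in the DMH, 155 and 190 in the VMH, and 151 and 134 in the Arc. A second probe gave 1386 and 1040, 205 and 144, 55.6 and 59.6, and 64.7 and 27.1 in the same order. On both probes the LH arrays were above all others by a wide margin, and the DMH arrays came next without passing against the Arc (adjusted p = 0.0706 and 0.0881).

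On the brighter Zic1 probe the LH exceeded the DMH by 2.52 ± 0.28 (adjusted p = 0.0197), the VMH by 3.71 ± 0.28 (0.00161), and the Arc by 3.98 ± 0.28 (0.00118), all on the log2 scale. The second probe also passed against each nucleus, with 2.81 ± 0.42 against the DMH (0.0404). The difference from the DMH missed the threshold on the brighter probe without Arc replicate 2 (0.051), either VMH array (0.063 and 0.057), or DMH replicate 1 (0.071), and on the second probe without LH replicate 1 (0.052) or any 1 of the VMH and DMH arrays (0.098 to 0.156). Zic2, Zic4, and Zic5 were measured on no array.

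Foxa1 was dim and measured only in the LH among the 4 nuclei, reading 195 and 155 there and between 18.7 and 27.5 on the other 6 arrays, none of which measured it. The LH was at least 1.54-fold above the Arc (adjusted p = 0.0018), at least 1.67-fold above the VMH (0.00161), and at least 1.84-fold above the DMH (0.00656). With dim signals set at the measured floor, the LH no longer passed against the Arc (0.166), nor did the F-test (0.16). Its paralog Foxa2 was measured on no array. The 2 Zic1 probes and Foxa1 were the 3 member probes higher in the LH than in each other nucleus, a result found for 0.485% of all tested probes, and the count was 1 without either VMH array or without DMH replicate 1. The sums of several marker lists of other cells were also highest in the LH. The sum of 10 oligodendrocyte genes was 128650 and 136560 in the LH and 13402 to 45388 elsewhere, with all 10 highest in the LH. That of 8 astrocyte genes was 145270 and 151040 in the LH and 85666 to 118940 elsewhere, with 3 of the 8 passing the F-test, Slc1a2 and S100b highest in the LH and Gfap in the Arc. That of 7 endothelial genes was 15342 and 20153 in the LH and 8526 to 13042 elsewhere, with Flt1 alone passing. The sum of 8 thalamus and zona incerta genes was 9975 and 10519 in the LH, where Pvalb made up most of it, and 2003 to 3705 elsewhere. Of its 2 members that passed the F-test, Pvalb was highest in the LH and Synpo2 in the Arc. Synpo2 read 200 and 152 in the Arc and 21.7 and 26.9 in the LH. Gbx2 of the same list was measured on no array, and the part of such cells and tissue in the LH values was not tested.

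Tbr1, a T-box factor of cortical projection neurons, was highest in the LH but with arrays far apart. The brighter probe read 1556 and 8724 in the LH, 695 and 724 in the DMH, 279 and 149 in the VMH, and 228 and 245 in the Arc. The second LH array thus stood above the first and all others, although the first was still above the DMH arrays. The LH passed against the Arc (3.96 ± 0.73 on the log2 scale, adjusted p = 0.0205) and the VMH (4.18 ± 0.73, 0.0245) and not against the DMH (2.38 ± 0.73, 0.21), where it passed under 1 of 20 alternatives, without LH replicate 1 (3.62, 0.0115). The F-test (adjusted p = 0.0361) lost the threshold without any 1 of the Arc, VMH, and DMH arrays (0.085 to 0.122). A dimmer Tbr1 probe was measured only on the second array of the LH (298) and of the DMH (103) and was not tested. Of the 7 marker genes of cortical, hippocampal, and amygdala neurons, Slc17a7 and Neurod6 were measured on no array, and the sum was 15383 and 17202 in the LH against 17063 to 31379 elsewhere. Of the paraventricular peptide genes, Oxt read 8332, 6560, and 1242 on the second LH, first Arc, and second VMH arrays and 19 to 848 on the other 5, Avp read 2432 on the second LH array and 105 to 351 on the others, and Crh read 4931 and 3623 in the LH. The part of that tissue in the Tbr1 value was not tested. Eomes, another T-box gene of cortical progenitors, was measured on no array.

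**Figure D2:**
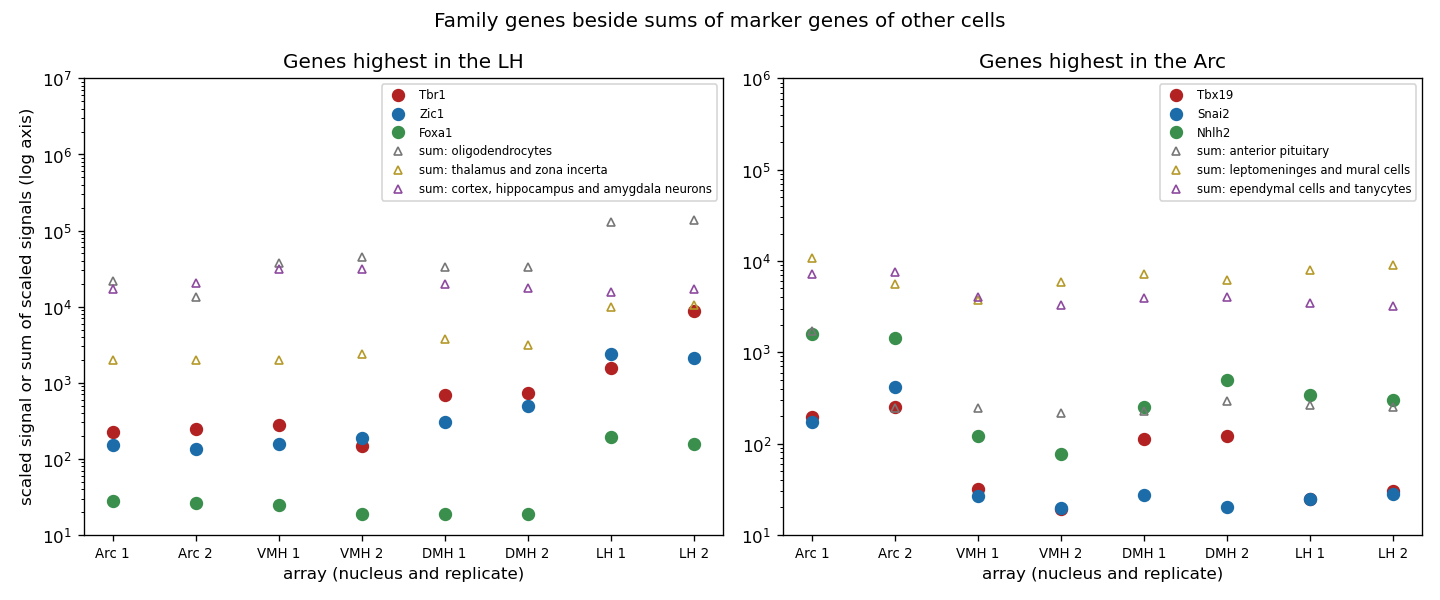
Scaled signals of 3 genes highest in the LH (left) and 3 genes highest in the Arc (right), as filled circles, beside the summed scaled signals of marker lists of other cells, as open triangles, on log axes with 1 point for each of the 8 arrays. On the LH arrays Zic1 and Foxa1 are high together with the oligodendrocyte sum (128650 and 136560). Tbr1 is highest on the second LH array, where the cortical sum, mostly Camk2a, is 17202. Nrn1 of the cortical list, not drawn alone, read 2099 and 2135 on the LH arrays and 1208 and 1245 on the DMH arrays. In the Arc, the pituitary sum is raised on the first array only.

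Tbx3 was highest in the Arc, above all 3 other nuclei. Tbx3 encodes a T-box repressor required for the identity of arcuate Pomc and Agrp neurons. Its scaled signal was 16146 and 16919 on the Arc arrays, 825 and 626 on the VMH arrays, 477 and 702 on the DMH arrays, and 699 and 841 on the LH arrays. It was measured everywhere, and the 6 arrays of the other nuclei overlapped one another. The Arc exceeded the LH by 4.43 ± 0.27 on the log2 scale (adjusted p = 0.000614), the VMH by 4.52 ± 0.27 (0.000557), and the DMH by 4.84 ± 0.27 (0.000632). Tbx2, its closest relative, was measured on no array.

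Tbx19, known as the T-box factor that switches on Pomc in pituitary corticotrophs, was far dimmer. It read 198 and 254 in the Arc, 111 and 122 in the DMH, 31.5 and 19.4 in the VMH, and 24.5 and 30.6 in the LH. Both Arc arrays and the second DMH array measured it. The Arc was at least 2.15-fold above the VMH (adjusted p = 0.00237) and at least 2.19-fold above the LH (0.00247) and did not pass against the DMH (0.266). With dim signals set at the measured floor, its F-test no longer passed (0.106). Of 7 anterior pituitary genes, 5 were measured on no array, Gh, Prl, and Pou1f1 among them. The sum was 1719 on the first Arc array, of which Cga made up 1425, and 216 to 293 on the other 7, and the part of pituitary tissue in the Tbx19 values was not tested.

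Snai2 and Nhlh2 were also highest in the Arc. Snai2, a zinc finger repressor of epithelial genes found in neural crest and mesenchyme, read 174 and 415 in the Arc and between 19.9 and 27.7 on the other 6 arrays, where it was not measured. The Arc was at least 2.63-fold above the LH (adjusted p = 0.00506), at least 2.59-fold above the VMH (0.00551), and at least 2.85-fold above the DMH (0.0126). With dim signals set at the measured floor, the Arc no longer passed against the LH (0.0765), nor did the F-test (0.12), and with the normexp background correction the F-test missed as well (0.0502). With Tbx3 it made up the 2 member probes for which the Arc lay above each other nucleus, as it did for 0.339% of all tested probes, and this count was 1 without DMH replicate 1 and 4 without LH replicate 1. The sum of 8 genes of leptomeninges and mural cells was 10677 and 5623 in the Arc and 3727 to 9099 elsewhere, and none of the 8 passed the F-test. Dcn (4162 and 1375), Lum (350 and 98.3), and Col1a1 (273 and 27.2) had their highest mean in the Arc, and the other members in the LH or DMH. These genes were higher on the first Arc array and Snai2 on the second. The part of such tissue in the Snai2 values was not tested.

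Nhlh2, a neuronal bHLH factor, read 1603 and 1450 in the Arc, 252 and 503 in the DMH, 339 and 301 in the LH, and 121 and 75.9 in the VMH. The Arc was separate from all others, and the VMH did not measure it. The Arc was at least 14.7-fold above the VMH (adjusted p = 0.00247) and 2.25 ± 0.37 above the LH on the log2 scale (0.0141), and did not pass against the DMH (2.10 ± 0.37, 0.056), though it did without DMH replicate 2 (0.0487), without LH replicate 1 (0.0489), and under 4 more of the 19 alternatives (0.00798 to 0.0473). The VMH was also below the LH, which was at least 3.08-fold higher (0.0455).

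Foxo1 and Sox3 had means in the order Arc, VMH, DMH, and LH, with the Arc highest. Foxo1, the forkhead factor that insulin signaling inhibits, read 4256 and 4218 in the Arc, 2214 and 2521 in the VMH, 2035 and 2053 in the DMH, and 1427 and 1669 in the LH on the brighter probe. The Arc and LH ends of this order differed (1.46 ± 0.20 on the log2 scale, adjusted p = 0.00664), while the Arc against the VMH (0.0554) and the DMH (0.0643) did not pass. The Arc passed against the VMH under 7 of 20 alternatives, among them without either LH array (0.0421 and 0.0467). A second Foxo1 probe had the same order of means with 2933 and 2344, 1523 and 1320, 1104 and 1576, and 760 and 1064, but did not pass the F-test (0.0589), as it did under 6 of 20 alternatives. The F-test of the brighter probe (0.0193) lost the threshold without any 1 of the Arc, VMH, and DMH arrays (0.054 to 0.129) and with no scaling between arrays (0.165).

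Sox3, an HMG-box factor of neural progenitors that is needed for pituitary and hypothalamic development, read 3212 and 2513 in the Arc, 1707 and 1596 in the VMH, 967 and 1211 in the DMH, and 558 and 722 in the LH. The 2 arrays of each nucleus stood apart from those of the next. The Arc exceeded the LH by 2.16 ± 0.24 on the log2 scale (adjusted p = 0.00389), and the VMH exceeded the LH (0.0251), whereas no pair of neighbors in this order passed (adjusted p = 0.124 for Arc against VMH, 0.37 for VMH against DMH, and 0.218 for DMH against LH). Without Arc replicate 1, the F-test gave an adjusted p of 0.062. Markers of ependymal cells and tanycytes moved with the Arc, where the sum of 7 genes was 7248 and 7494 against 3244 to 4076 elsewhere, although 2 of the 7, Foxj1 and Tmem212, were measured on no array. The part of these cells in the values of Sox3 and the other genes highest in the Arc was not tested.

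Sox1, Sox14, and Zfp831 were highest in the VMH. Sox1 belongs to the same group of neural progenitor factors as Sox3, Sox14 is known from inhibitory neurons of the thalamus and midbrain, and Zfp831 is a zinc finger gene. Sox1 read 3494 and 3656 in the VMH, 1750 and 1386 in the DMH, 1128 and 1145 in the Arc, and 943 and 976 in the LH. It was measured everywhere, and the VMH arrays were separate from all others. The VMH exceeded the DMH by 1.20 ± 0.20 on the log2 scale (adjusted p = 0.0352), the Arc by 1.65 ± 0.20 (0.00633), and the LH by 1.90 ± 0.20 (0.00514). The difference from the DMH missed the threshold without any 1 of the Arc, VMH, and DMH arrays (0.096 to 0.201) and with no scaling (0.321), and the F-test did so without either VMH array (0.054 and 0.055). A second Sox1 probe was measured on 3 arrays, all of replicate 2, and was not tested.

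Sox14 read 563 and 762 in the VMH, 212 and 187 in the Arc, 90.7 and 83.4 in the DMH, and 23.4 and 28.6 in the LH. The nuclei did not overlap, and only the VMH and Arc arrays measured it. The VMH exceeded the Arc by 1.72 ± 0.23 on the log2 scale (adjusted p = 0.00904), and was at least 6.94-fold above the DMH (0.00277) and at least 6.4-fold above the LH (0.000386). The difference from the Arc missed the threshold without either Arc array (0.063 and 0.076) or VMH replicate 2 (0.062). Sox14 was also the 1 member called lower in the LH than in each other nucleus, where 0.163% of all tested probes were, but its LH and DMH arrays were both below the measured range and no fold is given between them. The count fell to 0 without any 1 of the Arc, VMH, and DMH arrays.

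Zfp831 read 1061 and 1148 in the VMH, 154 and 63.3 in the DMH, 91.4 and 123 in the LH, and 56.7 and 132 in the Arc on the probe that was tested. The VMH arrays were far above the rest, and outside the VMH the gene was measured only on Arc replicate 2 and DMH replicate 1. It exceeded the DMH by 3.48 ± 0.52 (adjusted p = 0.0221) and the Arc by 3.67 ± 0.52 (0.0101) on the log2 scale, and was at least 10.1-fold above the LH (0.0161). With Sox1 and Sox14 it gave 3 member probes higher in the VMH than in each other nucleus, where 0.54% of all tested probes were. Without either VMH array the F-test of Zfp831 missed the threshold (0.11 and 0.105), and the count of 3 fell to 0 without Arc replicate 1 or VMH replicate 2, and to 1 without Arc replicate 2, VMH replicate 1, or DMH replicate 2. The sum of the 7 marker genes of cortical, hippocampal, and amygdala neurons, nearly all of it Camk2a, was 31379 and 30889 in the VMH and 15383 to 20368 elsewhere, with Slc17a7 and Neurod6 measured on no array. Of 6 neuron genes only Rbfox3 passed the F-test (adjusted p = 0.0186), reading 11776 and 11171 in the VMH and 2613 to 8034 elsewhere. The part of such cells in the values of Sox1, Sox14, and Zfp831 was not tested.

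Npas1 and Npas3, bHLH-PAS factors of neurons, were lowest in the Arc or in the Arc and VMH. Npas1, known as a repressor in inhibitory neurons of the forebrain, read 58.4 and 80.8 in the Arc, 794 and 756 in the VMH, 361 and 514 in the DMH, and 910 and 837 in the LH on the brighter probe. The Arc arrays did not measure it, and the other nuclei were at least 6.85-fold (VMH, adjusted p = 0.00114), at least 3.81-fold (DMH, 0.00705), and at least 7.72-fold (LH, 0.00118) above it. A second probe read 62.6 and 82 in the Arc, 230 and 287 in the VMH, 148 and 155 in the DMH, and 263 and 296 in the LH, and passed against the VMH and LH but not the DMH (0.0948). Its F-test gave an adjusted p of 0.066 without Arc replicate 1. The order of LH, VMH, and DMH was shared by both probes, and no pair among the 3 passed the test.

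Npas3 had 3 tested probes with the LH highest on each. The probe that differed among nuclei read 1040 and 952 in the LH, 519 and 682 in the DMH, 431 and 315 in the Arc, and 396 and 320 in the VMH. Its LH arrays were above all others (1.43 ± 0.26 over the Arc, adjusted p = 0.0188, and 1.48 ± 0.26 over the VMH, 0.0239, on the log2 scale), but the difference from the DMH (0.74 ± 0.26) did not pass (0.251). The brightest probe, between 697 and 1529 on all arrays, did not pass the F-test (0.084, but 0.044 with the normexp background correction), nor did the third (0.181), and the F-test of the first (0.0326) missed the threshold when any 1 of the 8 arrays was left out (0.057 to 0.098).

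The criterion of the study, a signal at least 10 times that in each other nucleus, was met by 6 member probes from 5 genes, with no test. They were Tbx3 and Snai2 for the Arc, Zfp831 for the VMH, and Prdm13 and both Skor1 probes for the DMH, and 0.228% of all tested probes met it. Tbx3, measured on all arrays, had a ratio of 21.5 to the next nucleus. For Prdm13, Skor1, and Zfp831 the next nucleus had 1 unmeasured array, so that their ratios depend on values below the measured range, and for Snai2 only the bounds given above hold. The count of 6 fell to 2 with dim signals set at the measured floor and to 1 with the normexp background correction. No Zic, Ebf, Fox, or Sox gene met the criterion.

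**Figure D3:**
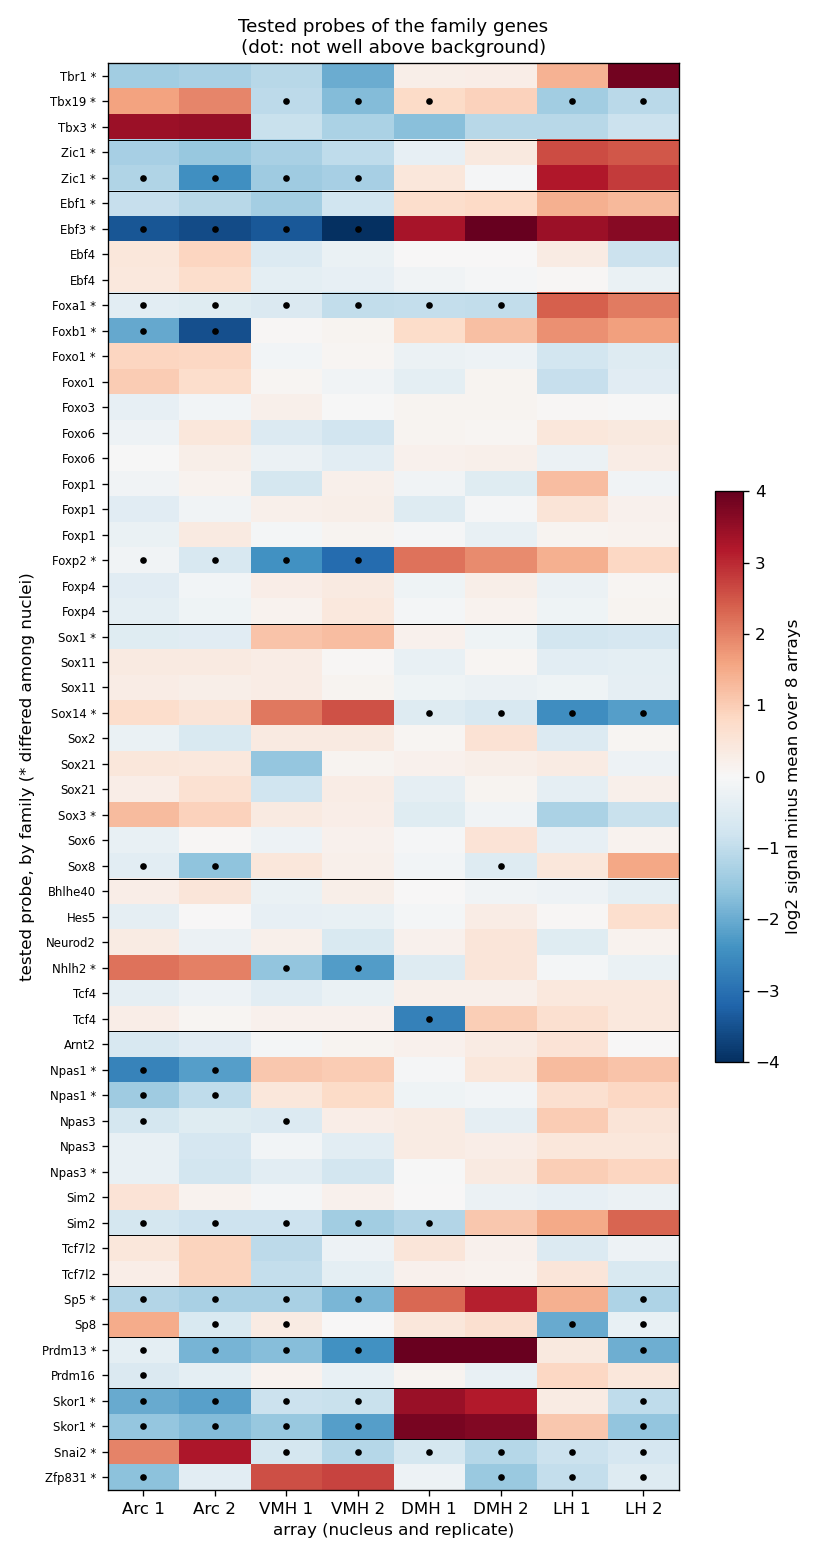
Log2 scaled signal of each of the 56 tested probes minus its mean over the 8 arrays, as color, with families separated by lines, an asterisk after genes whose probe differed among the nuclei, and a dot where the probe was not measured on the array. The rows of Prdm13 and Skor1 are red in the DMH, those of Zic1 in the LH, and that of Tbx3 in the Arc, while Ebf3 is red in both the DMH and LH. Rows without an asterisk are mostly pale.

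The remaining 32 tested probes did not pass the F-test, and 26 of these were measured on all arrays, with a ratio of the highest to the lowest nucleus between 1.23 and 2.89 (median 1.68). Hes5, a bHLH repressor downstream of Notch, was among the brightest, between 13688 and 28346 on all arrays (adjusted p = 0.392). Bhlhe40, a clock-linked bHLH repressor, lay between 2834 and 5266 (0.336), and Arnt2, the partner of several bHLH-PAS factors, between 2072 and 4687 (0.173). Both Foxp4 probes, Foxo3, Foxo6, Foxp1, Sox2, Sox6, Sox11, Sox21, Ebf4, Tcf4, Tcf7l2, Neurod2, Prdm16, Sp8, and Sox8 did not pass either. Tcf7l2, the effector of Wnt signaling, read 2445 and 3732 in the Arc, 1042 and 1529 in the VMH, 2303 and 2243 in the DMH, and 2837 and 1316 in the LH on the brighter probe, with arrays that overlapped widely (adjusted p = 0.276). A failed test does not show that the nuclei have the same level.

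Sim2, a bHLH-PAS factor, had 2 probes that did not match. The brighter was between 876 and 1603 on all arrays (adjusted p = 0.328), while the dimmer read 168 and 295 in the LH, 26.2 and 125 in the DMH, 36.5 and 33.3 in the Arc, and 33.3 and 22.3 in the VMH. The dimmer was measured in the LH and on the second DMH array only and did not pass (0.0916), except without either DMH array (0.0226 and 0.0218) and with the normexp background correction (0.0359). Its paralog Sim1, a gene of the paraventricular nucleus, was measured on no array.

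Another 14 genes (22 probes counting those of genes seen by another probe) were measured on no array, with scaled signals between 18.5 and 155. They were Bhlhe22, Ebf2, Eomes, Foxa2, Foxd1, Hes1, Neurod1, Neurod6, Sim1, Sp9, Tbx2, Zic2, Zic4, and Zic5. Of 6 further probes measured on some arrays but not tested, Skor2 is the paralog of Skor1. Skor2 read 128 and 160 in the Arc, 88 and 414 in the VMH, 44 and 540 in the DMH, and 48 and 158 in the LH. Skor2 was measured on the 4 arrays of replicate 2 and on none of replicate 1, which lay in different rows of the slide, so that the replicate and the row cannot be told apart. Prdm8 was measured on the first LH array only (126), and Sox5 on 2 arrays.

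Of 125 probes for 104 other members of the same families, 67 probes of 59 genes were tested and 8 of them differed (11.9%), beside 8.34% of all tested probes. The 3 with the smallest p were Foxd2 and the LH-high Sox10 and Foxn3. Foxd2, a forkhead factor, read 925 and 1230 in the DMH, 747 and 375 in the LH, 424 and 424 in the Arc, and 32.8 and 20 in the VMH (adjusted p = 0.00226). It was not measured in the VMH, which was called lower than each other nucleus. Sox10, which specifies oligodendrocytes, read 7921 and 9589 in the LH and between 1355 and 3260 elsewhere (0.00504), and Foxn3, a forkhead repressor, read 4013 and 3336 in the LH and between 791 and 1456 elsewhere (0.00707). The count of 8 fell to 5 without Arc replicate 1 or VMH replicate 1, 3 without Arc replicate 2, and 4 without VMH replicate 2, and rose to 13 without LH replicate 1.

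Of 48 probes for 34 partners and cofactors of these factors, 43 were tested and 2 differed (4.65%). Tle4, a Groucho corepressor, read 419 and 322 in the LH, 205 and 205 in the Arc, 36.7 and 37.5 in the VMH, and 28.6 and 71.6 in the DMH on 1 probe (adjusted p = 0.00864), whereas another Tle4 probe, between 2775 and 6632 on all arrays, did not pass (0.185). Smad3, a transducer of TGF-beta signals, read 3330 and 3103 in the VMH and between 940 and 1592 elsewhere on 1 probe (0.012), and was higher in the VMH than in each other nucleus. Another Smad3 probe read 373 and 371 in the VMH and between 31.3 and 252 elsewhere and did not pass (0.11). The third, Lef1, a partner of beta-catenin, read 403 and 331 in the DMH and 225 and 252 in the LH and did not pass (0.0714). The count of 2 was 1 without either Arc array, 5 without LH replicate 1, and 7 without LH replicate 2.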

How the data were processed

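Gene expression was measured in 4 hypothalamic nuclei with 2 one-color Agilent arrays each. The authors read a spot intensity with Agilent Feature Extraction (version 10.7.3.1 per the file headers, 11.5.1.1 per the labels), and the deposited processed intensity is background-subtracted, detrended, floored at a minimum, and not scaled between arrays. A further deposited table averages this intensity over spots. The dye is Cy3 in the labels and Cy5 in the methods, and red-channel files were deposited. All arrays lay on 1 slide, read in 1 scan, with replicate 1 in 1 row and replicate 2 in the other.

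Outlier spots were left out, spots of a probe averaged, each array divided by its 75th percentile (divisors centered on a geometric mean of 1), and log2 taken. A mean per nucleus was fitted in limma 3.58.1 (R 4.3.3) to the 28894 probes well above background on 2 of 2 arrays in some nucleus, with an F-test and 6 pairwise contrasts, each adjusted by Benjamini-Hochberg over all probes, at a threshold of 0.05. A nucleus was higher or lower than each other nucleus when all 3 contrasts passed. The general statistics of the study name one-way ANOVA with the Tukey-Kramer test, which was run as an alternative. Where a probe was measured on no array of a nucleus, "at least" folds divide the geometric mean of the brighter nucleus by that of the higher of the probe's own signal and the lowest measured signal on each array of the dimmer one. The analysis was tested on simulated data. Promoter sequences are those of RefSeq (GRCm38.p6).

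Of the probes with a RefSeq accession, 94.3% were given a symbol. A gene was described by its brightest probe, with all arrays given where a probe passed the F-test or the highest nucleus was at least 3 times the next with both its arrays measured, other probes where they disagreed, and the 3 probes with the smallest p of each related list. The members and lists were chosen with earlier results of these data known. The alternatives were other scalings and background corrections, the deposited table, other filters, outlier spots kept, dim signals raised, the replicate number as a block, trended moderation, and each array left out. The check of the numbers found correlations of replicate deviations between nuclei of -0.03 to 0.26, so arrays were not treated as paired.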

Additional observations from a re-analysis of the deposited data

How the results depend on the processing

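The precision is limited by 2 arrays a nucleus and by signals near background. Of the comparisons of named probes under the alternatives, 484 of the F-tests kept their side of the threshold, 68 lost it and 10 gained it, and of the differences between the highest and the next nucleus 485 kept it, 47 lost it, 27 gained it, and 3 changed sign, none of them past the threshold in either setting. These 3 were Npas3 (LH minus DMH) at -0.16 on its brightest probe with no scaling, Ebf3 (DMH minus LH) at -0.22 without DMH replicate 2, with 0.55 as the highest value over all arrays left out, and the dimmer Npas1 probe (LH minus VMH) at -0.041 without VMH replicate 1, with 0.28 as the highest. With no scaling, where the median difference of all probes between Arc and DMH was -0.46 on the log2 scale instead of 0.02, 3 member probes were higher in DMH than in each other nucleus, 1 higher in LH, and 0 lower in LH. The normexp correction gave 1 higher in VMH, 2 lower in VMH, 3 higher in DMH, 0 lower in LH, 1 past the 10-fold criterion, and 4 partners and cofactors that differed. Raising dim signals gave 3 higher in DMH, 0 lower in LH, 2 past the criterion, and 5 partners. Without a filter 0 were lower in LH. Requiring all 8 arrays left 34 member probes, of which 9 differed, with 1 higher in VMH, 1 higher in LH, 1 past the criterion, 1 higher in both DMH and LH, and 0 higher in DMH or lower in Arc, VMH, or LH. Tukey-Kramer ANOVA gave 10 that differed, 1 family relative, 1 partner, and 0 in every count of a nucleus above or below the others. Trended moderation gave 4 higher in Arc, 2 lower in VMH, 2 higher in DMH, 0 lower in LH, and 4 partners.

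With the replicate block, 21 member probes differed instead of 24, 2 were higher in DMH, and 0 lower in LH. The calls lost were the F-tests of Sp5 (adjusted p = 0.0526), Tbr1 (0.0525), and Npas3 (0.051), and Sox1 no longer passed between VMH and DMH (0.0609), while Prdm13 passed between DMH and LH (0.035). The arrays share only a replicate number, which is also the row of the slide. Scaling by the percentile of probes measured on all arrays was chosen after the data were seen and gave 25, and the count of probes higher in both DMH and LH was also chosen then.

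With each array left out in turn, 16 to 25 member probes differed, 1 to 4 were higher in Arc, 0 to 3 in VMH, 0 to 4 in DMH, and 1 to 4 in LH, while 1 to 3 were lower in Arc, 0 to 1 in VMH, 0 to 1 in DMH, and 0 to 1 in LH. Between 4 and 7 passed the 10-fold criterion, 1 to 6 were higher in both DMH and LH, 3 to 13 family relatives differed, and 1 to 7 partners and cofactors did. The lone array left in a nucleus was assumed to vary like the others. The cause of each of these shifts was not tested, beyond the fewer probes and arrays entering the fit.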
